A study of Mus musculus with 10 samples.

Results

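Smooth muscle and actin cytoskeleton genes were followed across 5 groups of mouse embryonic fibroblasts that differed in G9a, a histone methyltransferase encoded by Ehmt2. The set was a list of 32 genes, taken from the array by the gene symbol of each probe set (a group of short probes designed against a transcript). Of the 32 genes, 31 had a probe set of their own, with 65 probe sets among the 22626 on the array that were not controls and 31 genes among 12393. Myh10 had none. Of those 31 genes, 28 were bright enough to be tested, and Myh11, Des and Lmod1 were not. A gene is given below by its brightest probe set unless stated.

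The cells were G9a-deleted fibroblasts given back 1 of 4 constructs: an empty vector (the group delta), G9a of wild-type sequence with a FLAG tag (the group WT), the tagged protein with the K165A change, or the tagged catalytic mutant H1093K. A further group was titled only as deleted, with no reconstitution described. Each of the 5 groups had 2 Affymetrix arrays, 10 in all, of total RNA extracted with Trizol and a column cleanup. The labels do not say how the deletion was made, whether a line is a single clone, or whether the arrays of 1 group stand for independent cultures. The p-values therefore speak of the spread between arrays of the same group, whose source may be technical. This spread was pooled over the 5 groups and drawn toward that of probe sets of like brightness. In bulk RNA, fewer cells of a type and less RNA per cell cannot be told apart.

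Contractile cells of smooth muscle, and fibroblasts that take on myofibroblast features, pull on their surroundings with bundles of actin and myosin. Actin isoforms form the filaments, while tropomyosins, calponins, caldesmon and transgelin bind along them. Myosin heavy chains work with essential and regulatory light chains, the latter phosphorylated by the kinase encoded by Mylk. Alpha-actinins, filamin, vinculin, zyxin and the LIM-domain adaptors tie the filaments to each other and to integrins. Many of these genes are known targets of the transcription factor SRF, which binds the CArG box and works with myocardin-related cofactors.

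Signals are the deposited linear Affymetrix values, in which each array's trimmed mean lay between 500.1 and 500.2 and its median between 181 and 199. Ratios of the actin control's 3' to 5' probe sets were 1.19 and 1.19 in delta, 1.36 and 1.29 in WT, 1.24 and 1.22 in K165A, 1.21 and 1.22 in H1093K, and 1.35 and 1.25 in the arrays labelled deleted. They were highest in WT and in the arrays labelled deleted, and the part of this in the differences below was not tested. Ratios of the Gapdh control lay between 0.741 (delta) and 0.794 (H1093K) over all arrays. They were 0.762 and 0.786 in WT, and 0.773 and 0.766 in the arrays labelled deleted. The brightest Ehmt2 probe set read 473 and 415 in delta, 676 and 620 in WT, 704 and 725 in K165A, 461 and 494 in H1093K, and 1680 and 1750 in the arrays labelled deleted. Both arrays labelled deleted lay above the other 8, so the targeted gene went against that label. No label says whether this probe set lies in the deleted part of the gene. On it H1093K lay near delta, while WT and K165A lay above both. A dimmer probe set, not tested, read 7.13 and 36.5 in delta, 40.9 and 106 in WT, and 90.4 and 178 in K165A. It read 116 and 55.7 in H1093K, and 162 and 247 in the arrays labelled deleted. Whether H1093K was expressed at the level of the other constructs was not tested. Fibroblast genes were bright in every group, with summed signals of a 10-gene marker list (Col1a1, Col1a2, Fn1 and Vim among them) from 47500 in H1093K to 63000 in WT. Dcn and Pdgfra were dim in 4 groups and read means of 1440 and 311 in the arrays labelled deleted. The sum hides differences of single genes. Of 8 tested, 2 were called higher and 2 lower in WT than in delta by the test described below. Of all genes tested, 5.66% were called higher and 7.48% lower. Means in delta and WT were 2480 and 4600 for Col3a1, 662 and 1390 for Pdgfrb, and 1870 and 989 for Thy1. S100a4 had means of 6660 in delta, 4870 in WT and 1200 in the arrays labelled deleted.

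Fibroblasts with WT or K165A G9a carried less RNA of a few contractile members than delta fibroblasts. No member was called between H1093K and delta, where only 0.969% of all genes tested were. Actg2, the smooth muscle gamma-actin, was at least 5.70-fold lower in WT and in K165A than in delta. Calponin 1 (Cnn1), the laminin receptor integrin alpha-7 (Itga7) and transgelin (Tagln) fell by smaller amounts, and Pdlim5, a PDZ-LIM adaptor of the Z-disc and stress fibre, rose. Most of the machinery, including the tropomyosins, myosin light and heavy chains, alpha-actinins, filamin and Acta2, did not pass the test among these 4 groups. A gene was called where limma's adjusted p (Benjamini-Hochberg over all probe sets tested) was under 0.05. In WT against delta 4 of 28 members were called lower, where 7.48% of all genes tested were, and 1 of 28 was called higher, where 5.66% were. These 5 calls fell to 2 without WT replicate 1, and to 3 without WT replicate 2 or delta replicate 2. In K165A against delta 6 of 28 were called lower, where the share of all genes was 7.49%, and 1 of 28 higher, where it was 5.15%. These 7 calls fell to 3 without delta replicate 2, and to 4 without K165A replicate 1 or K165A replicate 2. The median log2 difference of the members was -0.08 in WT and -0.13 in K165A, beside -0.02 and -0.01 over all genes tested. Over delta, WT, K165A and H1093K together, the F test called 7 of 28 members, where it called 12.7% of all genes.

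Actg2 read 514 and 591 in delta, 59.5 and 48.7 in WT, 51.7 and 32.3 in K165A, 631 and 663 in H1093K, and 197 and 195 in the arrays labelled deleted. The arrays fell into separate levels, with WT and K165A at the bottom, the arrays labelled deleted between, and delta and H1093K at the top. On the log2(signal + 16) scale, which understates folds of dim genes, WT minus delta was -3.02 ± 0.18 (SE; adjusted p = 6.08e-06, limma) and K165A minus delta was -3.31 ± 0.18 (adjusted p = 3.27e-06, limma). H1093K minus delta was 0.23, with a 95% interval from -0.18 to 0.63. Both calls held whichever array was left out. All 4 WT and K165A signals lay below 96.7, the signal at the brightness filter, and within or below those of members left untested, so the size rests on the pseudocount. It ran from -3.35 with signals floored at 1 and no pseudocount to -2.38 with a pseudocount of 64 in WT. In K165A it ran from -3.75 to -2.54. Folds of Actg2 are therefore given as lower bounds, with each array's signal raised to at least 96.7 (a choice made after seeing the data).

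Cnn1 encodes calponin 1, an actin-binding protein of differentiated smooth muscle. Its signal was 1060 and 1050 in delta, 568 and 539 in WT, 573 and 526 in K165A, 893 and 815 in H1093K, and 259 and 232 in the arrays labelled deleted. No 2 groups overlapped except WT and K165A. WT was 1.88-fold and K165A 1.90-fold below delta (log2 differences of -0.91 and -0.92, adjusted p = 0.000206 and 0.000194, limma), and both calls held without any 1 array. H1093K minus delta was -0.30, with a 95% interval from -0.51 to -0.09, and did not pass after adjustment (adjusted p = 0.226, limma).

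Itga7, the integrin subunit that binds laminin in muscle, read 813 and 976 in delta, 594 and 599 in WT, 614 and 619 in K165A, 947 and 1150 in H1093K, and 164 and 153 in the arrays labelled deleted. The 4 arrays of WT and K165A lay below all of delta and H1093K. WT minus delta was -0.57 ± 0.12 (SE; adjusted p = 0.0134, limma) and K165A minus delta -0.52 ± 0.12 (adjusted p = 0.0201, limma). The WT call was lost without delta replicate 2 (adjusted p = 0.0961), WT replicate 1 (0.0756) or WT replicate 2 (0.0698). The K165A call was lost without delta replicate 2 (0.14), K165A replicate 1 (0.0851) or K165A replicate 2 (0.0803).

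Tagln, which encodes the actin-bundling protein transgelin, read 5310 and 6050 in delta, 4140 and 3900 in WT, 3790 and 3720 in K165A, 4840 and 5590 in H1093K, and 2800 and 3250 in the arrays labelled deleted. Again WT and K165A lay below delta and H1093K without overlap. WT minus delta was -0.50 ± 0.11 (SE; adjusted p = 0.0163, limma), lost without delta replicate 2 (0.112), WT replicate 1 (0.0537) or WT replicate 2 (0.0885). K165A minus delta was -0.59 ± 0.11 (adjusted p = 0.00657), lost without delta replicate 2 (0.0578).

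Csrp1 and Tagln2 moved by less, and their calls were lost when single arrays were left out. Csrp1, a LIM-only protein that binds alpha-actinin, read 4000 and 4150 in delta, 3300 and 3180 in WT, 2890 and 3140 in K165A, 3590 and 4340 in H1093K, and 2430 and 2620 in the arrays labelled deleted. K165A minus delta was -0.43 (adjusted p = 0.0212, limma), lost without any 1 of the 4 arrays compared (0.0504 to 0.117), and WT minus delta was -0.33 (adjusted p = 0.0601, or 0.0171 with the replicate number as a block). Its dimmer probe set read 2050 and 1960 in delta against 1500 and 1440 in WT and 1450 and 1470 in K165A, and was called in both. Tagln2, a transgelin found in many cell types, read 1920 and 1950 in delta, 1660 and 1560 in WT, 1510 and 1560 in K165A, 2070 and 1960 in H1093K, and 1660 and 1800 in the arrays labelled deleted. K165A minus delta was -0.33 (adjusted p = 0.0198, limma), lost without any 1 of the 4 arrays compared (0.0613 to 0.0986). Its dimmer probe set, of a kind whose probes may match several transcripts, went the other way in K165A, by 0.35, and the mean of both probe sets gave 0.01. WT minus delta was -0.26 for Tagln2 and missed the threshold at an adjusted p of 0.05 after rounding (0.0221 with the block).

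Among the members, Pdlim5 was called higher with WT and K165A. Zyx and Myl6 lay in the same order, Zyx passing only with the replicate number as a block and Myl6 not passing. Pdlim5 read 1910 and 2000 in delta, 2590 and 2530 in WT, 2690 and 2570 in K165A, 1870 and 1980 in H1093K, and 1280 and 1200 in the arrays labelled deleted. WT minus delta was 0.38 ± 0.07 (SE; adjusted p = 0.00766, limma), lost without delta replicate 1 (0.0555) or WT replicate 1 (0.0526), and K165A minus delta was 0.42 ± 0.07 (adjusted p = 0.00438), kept without any 1 array. All 7 of its probe sets were higher in WT, by 0.34 to 0.95, and 4 were called. Zyx, the zyxin of focal adhesions and stress fibres, read 3360 and 3760 in delta, 4440 and 5130 in WT, 4340 and 4790 in K165A, 3630 and 4030 in H1093K, and 2790 and 3430 in the arrays labelled deleted. Its WT minus delta was 0.42 (adjusted p = 0.0518, or 0.00243 with the block), while its dimmer probe set gave -0.22. Myl6, an essential myosin light chain, read 626 and 591 in delta, 763 and 698 in WT, 771 and 709 in K165A, 646 and 650 in H1093K, and 575 and 451 in the arrays labelled deleted, with a WT minus delta of 0.26 (adjusted p = 0.193).

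**Figure D1:**
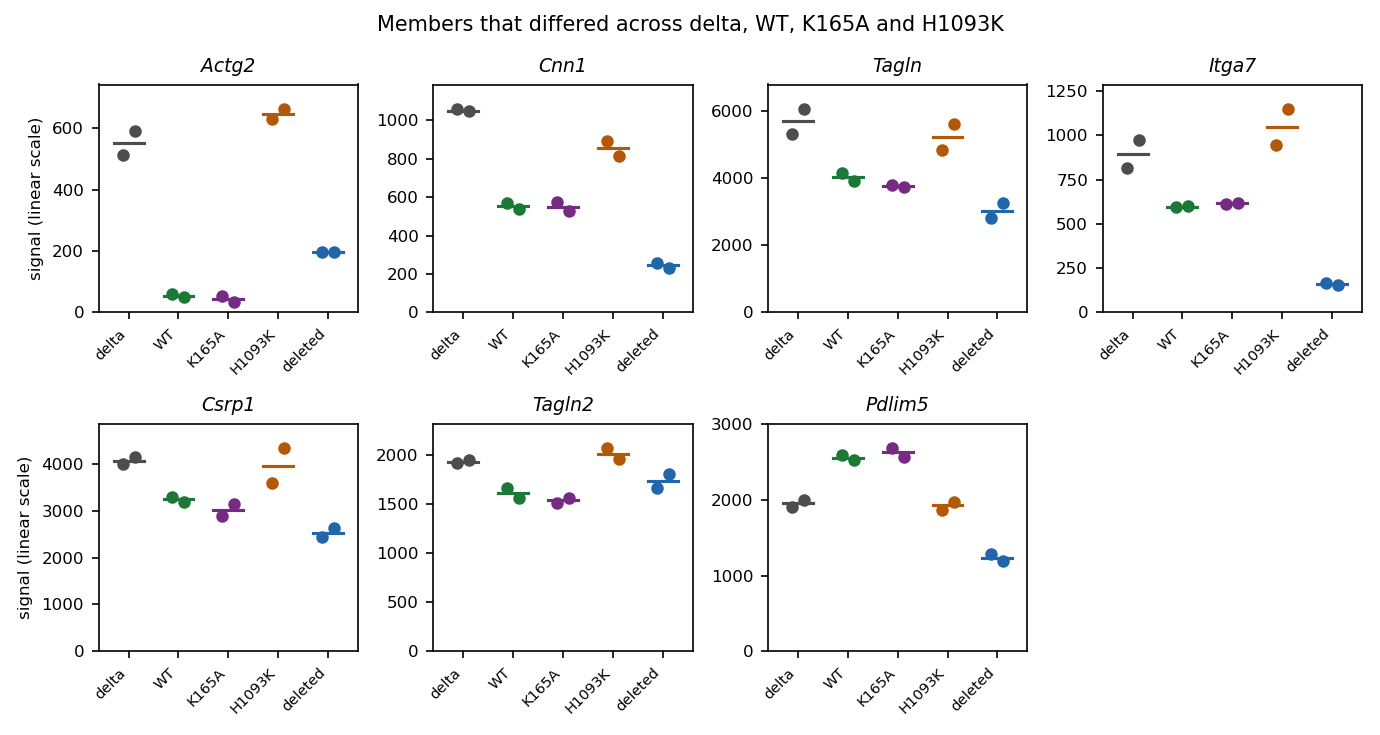
Signal on a linear scale (y axis from 0) of the 7 members that the F test called across delta, WT, K165A and H1093K; points are arrays and bars are group means of 2 arrays. In Actg2, Cnn1, Tagln, Itga7, Csrp1 and Tagln2 the 4 arrays of WT and K165A lie below the 4 of delta and H1093K, and in Pdlim5 above them.

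Counted over the members, the 4 arrays of WT and K165A all lay below the 4 of delta and H1093K in 7 of 28 (Actg2, Tagln, Tagln2, Cnn1, Itga7, Csrp1 and Pdlim7), where 13.2% of all genes tested did so. They all lay above in 3 of 28 (Myl6, Pdlim5 and Zyx), where 10.4% did. Pdlim7, the Enigma adaptor, read 2100 and 2410 in delta, 1780 and 1740 in WT, 1390 and 1910 in K165A, 2000 and 2730 in H1093K, and 1270 and 1530 in the arrays labelled deleted. Its K165A minus delta was -0.46 (adjusted p = 0.13, or 0.0103 with the block).

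Differences of the 28 members between the catalytic mutant H1093K and delta ran from -0.30 (Cnn1) to 0.23 (Itga7 and Actg2) on the log2 scale. No member was called between H1093K and delta (0 of 28 in either direction), where 0.504% of all genes were called higher and 0.465% lower. At an unadjusted p under 0.05 limma gave 1 of 28 members, Cnn1, and 955 of 7742 genes. Against WT, H1093K was called higher in 4 of 28 members (Actg2, Itga7, Cnn1 and Tagln2), where 4.56% of all genes were, and lower in 1 of 28 (Pdlim5), where 4.31% were. Against K165A, 6 of 28 were called higher (those 4 with Tagln and Csrp1), where 4.4% of all genes were, and 1 of 28 lower (Pdlim5), where 3.64% were. These comparisons share arrays with those against delta and are no separate evidence of the order.

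Actg2 was at least 6.69-fold higher in H1093K than in WT and in K165A, with log2 differences of 3.25 and 3.54 that rest on the pseudocount as above (adjusted p = 8.53e-06 and 5.44e-06, limma). Itga7 was 0.79 and 0.75 higher on the log2 scale (adjusted p = 0.0023 and 0.00351), and Cnn1 0.61 and 0.62 higher (0.00288 and 0.00273). These 3 genes kept both calls without any 1 array. Pdlim5 was -0.41 against WT (adjusted p = 0.00637), lost without WT replicate 1 (0.051) or H1093K replicate 1 (0.0639) and as the mean of its probe sets (0.0635), and -0.45 against K165A (0.00379), kept throughout. Tagln was 0.37 higher than in WT (adjusted p = 0.069, or 0.023 with the block) and 0.47 higher than in K165A (0.0275), lost without K165A replicate 1 (0.106), K165A replicate 2 (0.111) or H1093K replicate 2 (0.189). Tagln2 was 0.32 higher than in WT (adjusted p = 0.0284), lost without any 1 of the 4 arrays compared (0.071 to 0.184), and 0.39 higher than in K165A (0.011), lost without K165A replicate 1 (0.0754) or H1093K replicate 1 (0.0911), and 0.24 as the mean of its probe sets (0.153). Csrp1 was 0.39 higher than in K165A (0.0438), a call kept in 1 of 10 fits that each left out 1 array (without H1093K replicate 1).

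K165A was set against WT directly. No member was called between K165A and WT (0 of 28), where 0.0% of all genes were called higher and 0.0% lower. At an unadjusted p under 0.05 limma gave 0 of 28 members and 214 of 7742 genes. The widest member difference was that of Actg2, -0.29, with a 95% interval from -0.69 to 0.11, and that of Cnn1 was -0.01, from -0.22 to 0.20.

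With the replicate number as a block, the calls in WT against delta rose from 5 to 9 of 28 members, while calls over all genes rose from 13.1% to 22.1%. In H1093K against WT they also rose from 5 to 9, with all genes at 15.4%. With the block Zyx was called in K165A against delta (adjusted p = 0.00661), H1093K against WT (0.015) and H1093K against K165A (0.045). Pdlim7 was called in WT against delta (0.0337), H1093K against WT (0.0241), H1093K against K165A (0.00786) and, lower, in the arrays labelled deleted against WT (0.0258), and Csrp1 in H1093K against WT (0.0423). Fitted without the arrays labelled deleted, the members called were 6 in WT against delta (all genes 11.2%), 7 in K165A against delta (10.8%), 5 in H1093K against WT (7.71%) and 6 in H1093K against K165A (7.10%).

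**Figure D2:**
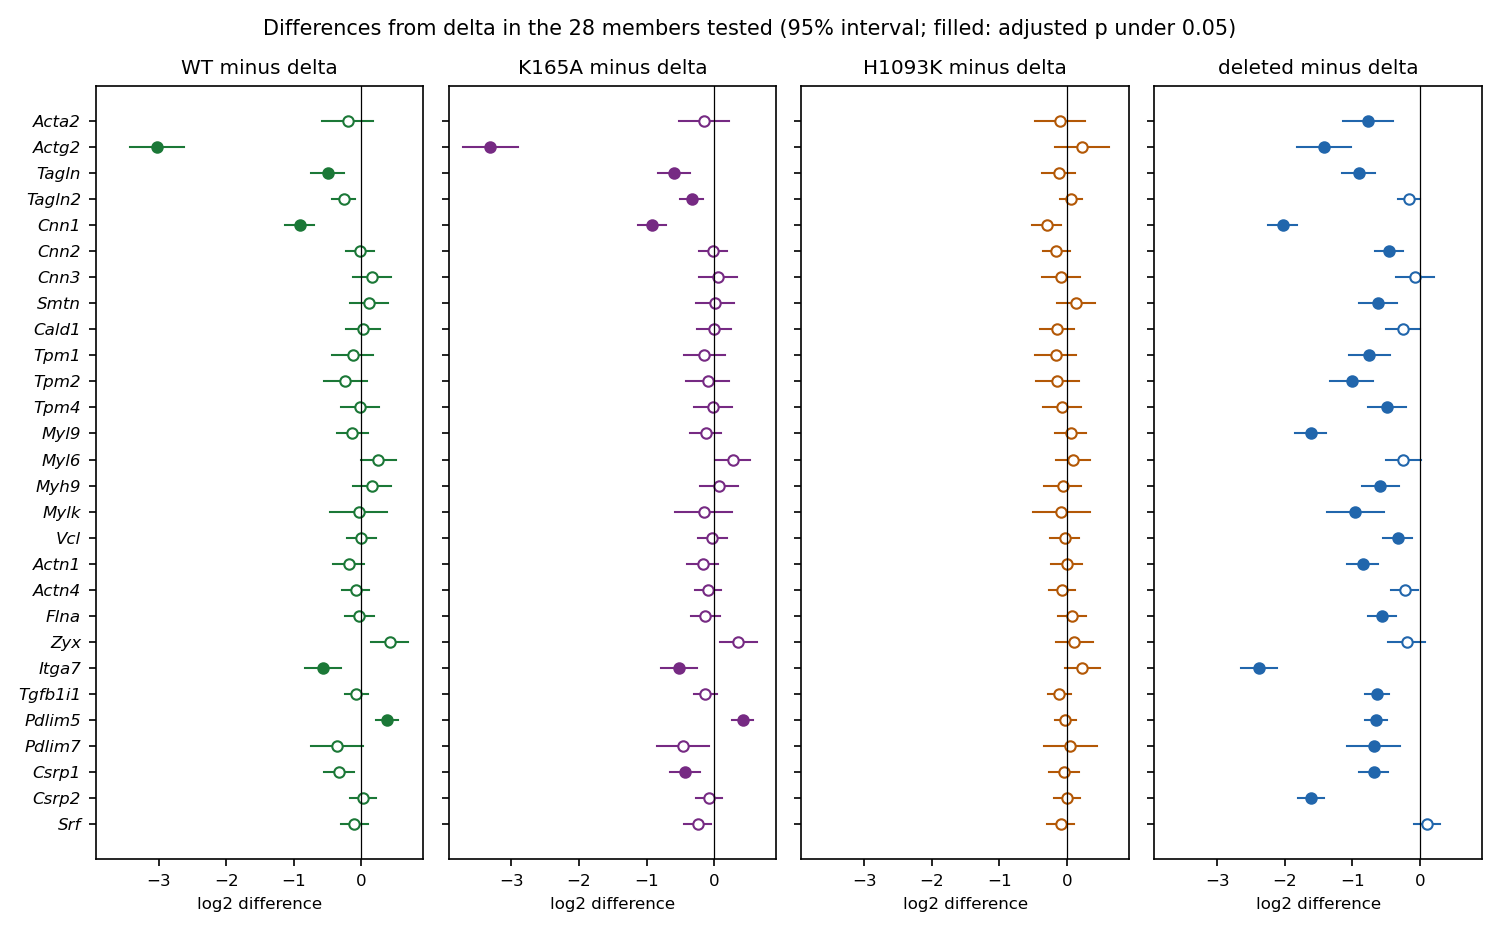
Log2 difference from delta (x axis) of the 28 members tested, in WT, K165A, H1093K and the arrays labelled deleted; points are fitted differences of 2 arrays against 2, lines are 95% intervals and filled points have an adjusted p under 0.05. Actg2 at -3.02 stands far left in WT, no point is filled in H1093K, and 21 are filled in the arrays labelled deleted.

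The arrays labelled deleted held less RNA of most of the contractile machinery, including genes that were not called among the other 4 groups. Against delta 21 of 28 members were called lower, where 18.9% of all genes were, and 0 of 28 higher, where 16.7% were. Against WT 21 of 28 were lower, where the share of all genes was 17.5%, and 1 of 28, Actg2, was higher, where it was 17.2%. The members' median was -0.65 against delta and -0.55 against WT, beside -0.01 and 0.00 over all genes. Both arrays labelled deleted lay below the other 8 in 22 of 28 members, where this held for 21.4% of genes, and above them in 1, Srf, where it held for 21.0%. Across all 5 groups the F test called 23 of 28 members, where 39.1% of genes were called, and 15 without deleted replicate 1.

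Itga7 and Cnn1, already lower in WT and K165A than in delta, were lowest here, 5.21-fold and 4.10-fold below delta (log2 differences of -2.38 and -2.03, adjusted p = 3.87e-07 and 2.55e-07, limma). Tagln was -0.91 against delta (adjusted p = 0.000149). Actg2 took another order: it was 2.67-fold below delta (adjusted p = 0.000228) and at least 2.03-fold above WT (adjusted p = 0.000115). Pdlim5 was -0.65 against delta and -1.04 against WT (adjusted p = 8.71e-05 and 4.4e-06), so the gene that rose with WT and K165A was lower than delta in these arrays.

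Myl9, the regulatory light chain of smooth muscle and non-muscle myosin, read 5840 and 6160 in delta, 5530 and 5420 in WT, 5980 and 5050 in K165A, 5860 and 6630 in H1093K, and 1900 and 1990 in the arrays labelled deleted. The first 8 arrays lay within 5050 to 6630 and the last 2 were 3.07-fold below delta (log2 difference -1.62 ± 0.10 SE, adjusted p = 2.11e-06, limma). Csrp2, a LIM-only protein of smooth muscle, read 6030 and 6310 in delta, 6560 and 5970 in WT, 5800 and 5860 in K165A, 5970 and 6430 in H1093K, and 1950 and 2080 in the arrays labelled deleted, 3.05-fold below delta (-1.61 ± 0.09 SE, adjusted p = 6.78e-07). Mylk, the kinase of the regulatory light chain, read 301 and 314 in delta, 319 and 280 in WT, 242 and 313 in K165A, 312 and 267 in H1093K, and 123 and 182 in the arrays labelled deleted (-0.96 against delta, adjusted p = 0.00348). Myh9, the heavy chain of non-muscle myosin, read 5990 and 6350 in delta, 7800 and 6080 in WT, 6700 and 6280 in K165A, 5610 and 6180 in H1093K, and 3870 and 4350 in the arrays labelled deleted. Its difference from delta was -0.59 (adjusted p = 0.00534), lost without deleted replicate 1 (0.0511), and all 4 of its probe sets were called lower.

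Of the tropomyosins, which lie along actin filaments, Tpm1, Tpm2 and Tpm4 were called lower in these arrays, and Tpm3, from the actin-binding list, was not (-0.09, adjusted p = 0.604). Tpm2 read 6840 and 6700 in delta, 6480 and 5100 in WT, 7260 and 5530 in K165A, 6030 and 6210 in H1093K, and 3260 and 3450 in the arrays labelled deleted (-1.01 against delta, adjusted p = 0.00045, limma). Tpm1 read 7290 and 8800 in delta, 7800 and 6900 in WT, 7370 and 7100 in K165A, 6490 and 7820 in H1093K, and 4390 and 5150 in the arrays labelled deleted (-0.75, adjusted p = 0.00208), and its 3 probe sets ran from -1.66 to -0.75. Tpm4 read 6710 and 7930 in delta, 7430 and 7000 in WT, 7470 and 7020 in K165A, 6240 and 7740 in H1093K, and 4970 and 5470 in the arrays labelled deleted (-0.48, adjusted p = 0.0151). The Tpm4 call was lost without delta replicate 2 (0.118) or deleted replicate 1 (0.106). Calponin 2 (Cnn2), the calponin of non-muscle cells, read 5660 and 6140 in delta, 5950 and 5660 in WT, 5980 and 5710 in K165A, 5020 and 5570 in H1093K, and 4120 and 4460 in the arrays labelled deleted (-0.46, adjusted p = 0.00396). Smtn, the smoothelin of contractile smooth muscle, read 374 and 469 in delta, 451 and 462 in WT, 417 and 426 in K165A, 431 and 492 in H1093K, and 256 and 279 in the arrays labelled deleted (-0.62, adjusted p = 0.00411).

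Several crosslinkers and adhesion adaptors were lower too. Actn1, an alpha-actinin, read 5500 and 5150 in delta, 4850 and 4530 in WT, 5160 and 4330 in K165A, 5550 and 5080 in H1093K, and 3040 and 2870 in the arrays labelled deleted (-0.85 against delta, adjusted p = 0.000171, limma). Flna, the crosslinker filamin A, read 5120 and 4790 in delta, 5230 and 4520 in WT, 4630 and 4430 in K165A, 5400 and 5040 in H1093K, and 3460 and 3230 in the arrays labelled deleted (-0.56, adjusted p = 0.0014). Tgfb1i1, a LIM adaptor of focal adhesions, read 1430 and 1650 in delta, 1470 and 1460 in WT, 1390 and 1420 in K165A, 1400 and 1440 in H1093K, and 977 and 985 in the arrays labelled deleted (-0.64, adjusted p = 0.00018). In each of these genes the last 2 arrays lay below the other 8. Vcl, the vinculin of adhesions, read 6550 and 6460 in delta, 6990 and 6040 in WT, 6660 and 6110 in K165A, 6310 and 6380 in H1093K, and 5270 and 5060 in the arrays labelled deleted (-0.33, adjusted p = 0.0237), a call lost without any 1 of the 4 arrays compared (0.0787 to 0.135). Csrp1 and Pdlim7 were -0.69 and -0.68 against delta (adjusted p = 0.000543 and 0.0134), and the Pdlim7 call was lost without delta replicate 2 (0.0799) or deleted replicate 1 (0.0944).

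Acta2, the smooth muscle alpha-actin by which myofibroblasts are usually recognised, read 9310 and 11900 in delta, 10400 and 8080 in WT, 10500 and 8590 in K165A, 8990 and 10600 in H1093K, and 6160 and 6150 in the arrays labelled deleted. The 4 reconstituted groups overlapped, with a WT minus delta of -0.20 and a 95% interval from -0.57 to 0.17. The arrays labelled deleted were -0.77 ± 0.17 (SE) against delta (adjusted p = 0.00571, limma), lost without delta replicate 2 (0.0522), and -0.57 against WT (0.0256), lost without WT replicate 1 (0.157), deleted replicate 1 (0.1) or deleted replicate 2 (0.101). This probe set is of a kind whose probes may also match other transcripts, and a dimmer one read 22.3 to 60.4. Members not called against delta in these arrays were Cald1, Cnn3, Actn4, Zyx, Myl6, Tagln2 and Srf. With the replicate block Actn4 (adjusted p = 0.0414), Zyx (0.0497) and Myl6 (0.0431) were called lower, which gave 24 of 28 members, with 45.9% of all genes called in either direction. Cald1, the caldesmon gene, read between 6200 and 8120 over all 10 arrays (-0.26, adjusted p = 0.11), although its other 2 probe sets were called lower. Cnn3, the acidic calponin, read between 5900 and 8290 (-0.07), and Actn4, an alpha-actinin, between 3620 and 4530 (-0.23, adjusted p = 0.0715). Srf itself read 620 and 621 in delta, 558 and 597 in WT, 543 and 501 in K165A, 556 and 608 in H1093K, and 681 and 658 in the arrays labelled deleted (0.11, adjusted p = 0.4), and its dimmer probe set was lower than delta by a log2 value of -0.47, also not called.

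Against WT, the calls lost with 1 array were more numerous. Of the 22 members called there, 14 kept the call without any 1 array, and of the 21 called against delta 16 did. Those lost against WT were Vcl, Acta2, Tagln, Tpm1, Csrp1, Tpm4, Myl6 and Cnn2, with adjusted p-values from 0.055 to 0.157. Leaving out deleted replicate 1 ended 7 of these 8 calls (not Myl6), leaving 15 of 28 called. WT replicate 1 ended 6 (Vcl, Acta2, Tagln, Csrp1, Tpm4 and Myl6), deleted replicate 2 ended those of Vcl, Acta2 and Myl6, and WT replicate 2 ended that of Csrp1. Zyx was -0.62 against WT (adjusted p = 0.00365), and -0.16 as the mean of its probe sets (0.318).

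**Figure D3:**
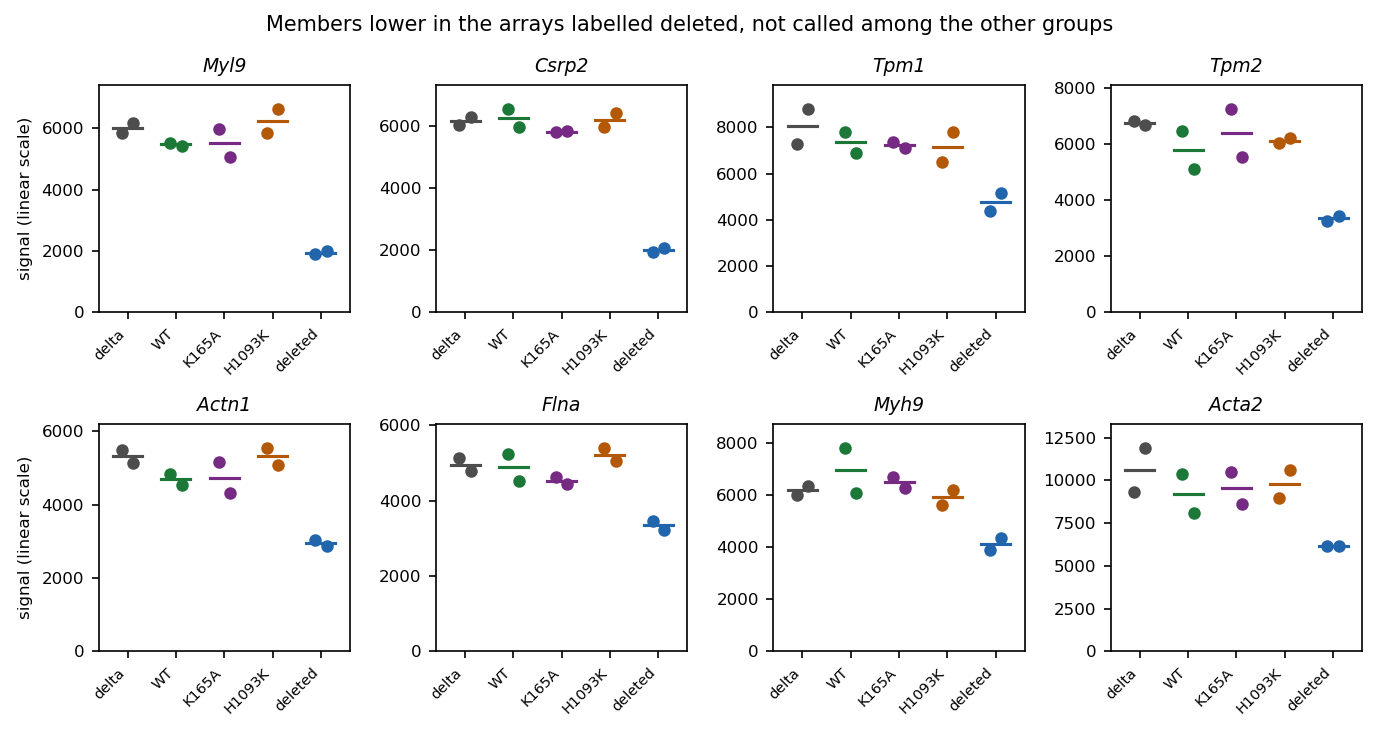
Signal on a linear scale (y axis from 0) of 8 members that were lower in the arrays labelled deleted and not called across the other 4 groups; points are arrays and bars are group means of 2 arrays. Myl9 and Csrp2 show the widest gap, with 1900 and 1990 in the arrays labelled deleted for Myl9 against 5050 to 6630 in the other 8.

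The 3 members left untested were dim throughout, unlike Cnn1, Smtn and Acta2. Myh11, the smooth muscle myosin heavy chain, read between 3.73 and 36.8 over the 10 arrays at its brightest probe set. Lmod1, the actin nucleator leiomodin, read between 6.98 and 115, and Des, the intermediate filament protein desmin, between 65.0 and 124. All 3 fell under the brightness filter and were not tested.

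Several members had more than 1 probe set, which served as repeated readings of a gene on the same arrays. Differences of the arrays labelled deleted from delta kept their sign over every tested probe set of Actn1 (3), Tpm1 (3), Tpm2 (4), Myh9 (4) and Pdlim5 (7). For WT against delta, the 3 of Actn1 and the 3 of Tpm1 were all below 0 without a call, while those of Tpm2 ran from -0.24 to 0.28. The 6 probe sets of Cnn3 ran from -0.05 to 0.37.

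**Figure D4:**
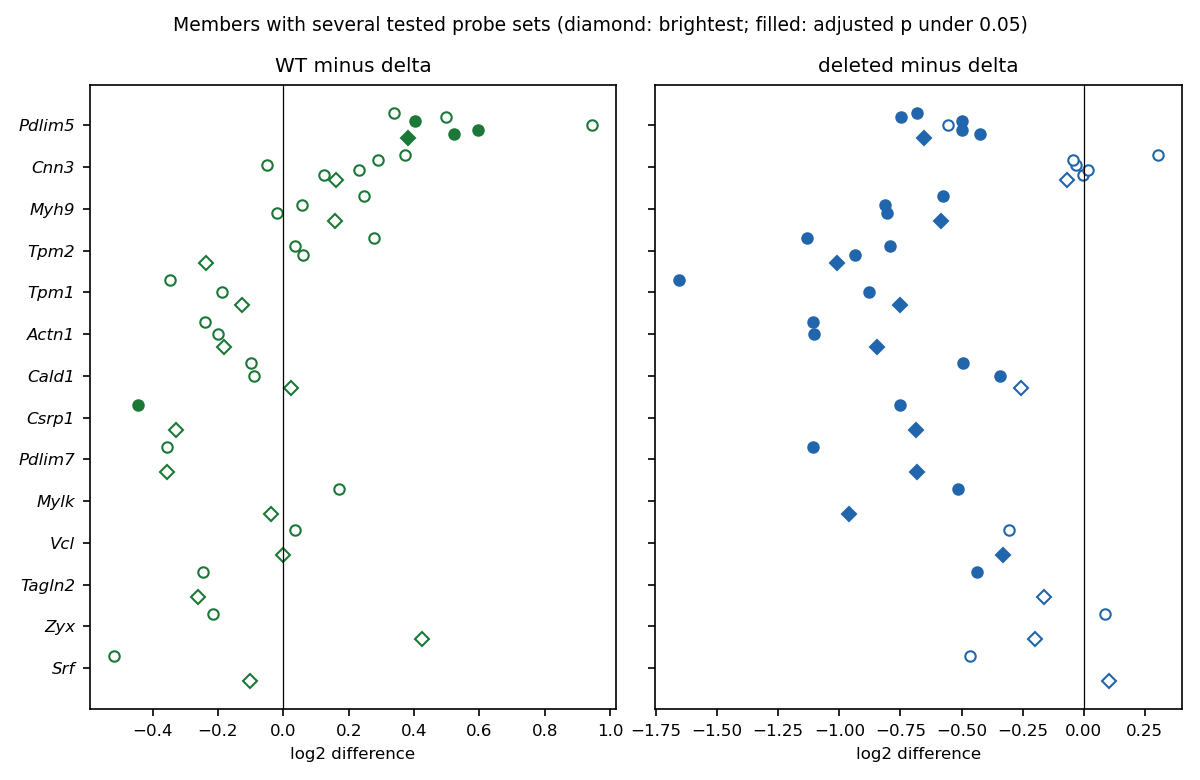
Log2 difference from delta (x axis) of every tested probe set of the members that have several, in WT and in the arrays labelled deleted; diamonds mark the brightest probe set and filled symbols an adjusted p under 0.05. The 7 Pdlim5 probe sets lie right of 0 in WT and left of 0 in the arrays labelled deleted, and the 2 of Zyx lie on opposite sides of 0 in both panels.

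Since many members are textbook SRF targets and moved together in the arrays labelled deleted, their promoters were searched for the CArG box. RefSeq windows (GRCm38.p6, from 250 bases before to 50 after a start) were at hand for 25 members, Actg2, Itga7, Tagln, Csrp2, Tgfb1i1, Myh10 and Myh11 not among them. The general pattern of the box, though not each single site, reads the same way on both strands. An exact CArG box stood in 5 of these 25 (20.0%), where 1.81% of 27025 genes with a window held one. With up to 1 mismatch it stood in 10 of 25, where 23.8% of genes did. The 5 were Cnn2 (CCTTATAAGG, first base 56 before the start), Myl9, Myl6 (CCTTATATGG, 50 before, in 1 of its 2 windows), Vcl (CCTTATAAGG, 227 before) and Srf. Cnn2, Myl9 and Vcl were called lower in the arrays labelled deleted than in delta, Myl6 and Srf were not, and none of the 5 was called across the other 4 groups. Windows of Cnn1, Csrp1, Tagln2 and Pdlim5, which were called there, held none, also with 1 mismatch. A match is a description of letters only, and no match says only that these letters are not in the window. Many members are known SRF targets, and Srf itself is 1 of the 5. A share above that of all genes may therefore come from the choice of list alone. The upstream 250 bases are shown for Srf and Myl9, which hold an exact box, for Acta2, which holds boxes with 1 mismatch (first bases 84 and 34 before the start), and for Cnn1, which holds none, 5' to 3' on the gene's strand. Capitals mark the exact boxes of Srf and Myl9, whose boxes with 1 mismatch stay in lower case, and the boxes with 1 mismatch of Acta2. Srf lies at chr17:46556163-46556412 (reverse strand), Myl9 at chr2:156775214-156775463 (forward strand), Acta2 at chr19:34255374-34255623 (reverse strand) and Cnn1 at chr9:22099003-22099252 (forward strand).
Srf: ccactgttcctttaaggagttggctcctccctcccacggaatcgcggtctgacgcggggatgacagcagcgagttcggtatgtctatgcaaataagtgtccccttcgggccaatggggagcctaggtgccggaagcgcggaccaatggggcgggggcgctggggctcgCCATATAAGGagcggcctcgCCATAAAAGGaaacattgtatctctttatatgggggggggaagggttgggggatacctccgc
Myl9: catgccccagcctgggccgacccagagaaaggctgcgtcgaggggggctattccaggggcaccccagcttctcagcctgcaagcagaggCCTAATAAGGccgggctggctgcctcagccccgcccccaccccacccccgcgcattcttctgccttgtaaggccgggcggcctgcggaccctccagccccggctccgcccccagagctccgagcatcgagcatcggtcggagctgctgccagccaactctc
Acta2: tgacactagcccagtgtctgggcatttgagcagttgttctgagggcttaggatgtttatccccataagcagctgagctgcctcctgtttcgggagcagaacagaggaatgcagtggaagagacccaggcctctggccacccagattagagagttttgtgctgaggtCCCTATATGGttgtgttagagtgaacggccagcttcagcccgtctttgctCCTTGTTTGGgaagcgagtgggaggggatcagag
Cnn1: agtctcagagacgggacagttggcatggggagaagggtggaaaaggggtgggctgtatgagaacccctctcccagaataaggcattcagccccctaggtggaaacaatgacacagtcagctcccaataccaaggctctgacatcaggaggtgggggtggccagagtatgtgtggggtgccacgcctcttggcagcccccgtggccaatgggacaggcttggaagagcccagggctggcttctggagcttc

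Genes that act upstream of or beside the members were counted in the same way, to be read beside the 5.66% of all genes called higher and the 7.48% called lower in WT against delta. Of 12 tested SRF cofactors and regulators, 2 were called higher in WT than in delta and none lower. These were Klf4, a zinc-finger repressor of smooth muscle genes, which read 382 and 409 in delta and 942 and 1270 in WT (1.43, adjusted p = 0.000407, limma), and Gata6 (0.58, adjusted p = 0.0393). In K165A Klf4 alone was called (1.08, adjusted p = 0.00242), with H1093K at 674 and 498 (0.53 against delta, adjusted p = 0.213). Klf4 and Gata6 were highest in the arrays labelled deleted, at 1770 and 2030, and 1700 and 2050 (2.22 and 2.06 against delta, adjusted p = 5.92e-06 and 7.33e-06). Rbpj was also called higher there (0.35, adjusted p = 0.0251, limma). Called lower than delta in these arrays were Fhl2 (-1.35, adjusted p = 0.0002), Fhl1 (-1.33, 6e-05), Foxo1 (-0.71, 0.00092) and Elk3 (-0.36, 0.00657). Rbpj and Elk3, the other genes of smallest p in this list, were 0.34 and -0.25 in WT against delta and were not called. Of the myocardin-related cofactors, Mrtfa was tested and not called. Its difference from delta was 0.22 in WT and -0.16 in the arrays labelled deleted (adjusted p = 0.264 and 0.323, limma). Myocd and Mrtfb were not among the genes tested.

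Of 16 tested TGF-beta ligands, receptors and SMADs, 4 were called higher and 1 lower in WT than in delta. The ligand Tgfb2 read 868 and 1020 in delta, 1520 and 1680 in WT, 1580 and 1660 in K165A and 1390 and 1230 in H1093K (WT minus delta 0.76, adjusted p = 0.00089, limma). The inhibitor Smad6 read 770 and 670 in delta, 1010 and 1060 in WT, 964 and 1010 in K165A and 540 and 562 in H1093K (0.51, adjusted p = 0.00669). Tgfb3 (0.45, adjusted p = 0.0111) and Tgfbr1 (0.46, adjusted p = 0.0334) were the others called higher. The repressor Skil was lower (-0.29, adjusted p = 0.0228), and the receptor Tgfbr2 was 0.26 and not called (adjusted p = 0.0761). In K165A against delta 3 of the 16 were called higher and 3 lower, where 5.15% and 7.49% of all genes were.

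Of 14 tested genes of the RhoA, ROCK and myosin phosphatase arm, which sets light chain phosphorylation, 1 was called higher and 1 lower in WT. The GTPase gene Rhob read 3210 and 3660 in delta, 2040 and 2310 in WT, 1970 and 2450 in K165A, and 3290 and 3730 in H1093K (-0.66, adjusted p = 0.00753, limma). Rnd3 read 1850 and 1770 in delta, 2280 and 2480 in WT, 2380 and 2380 in K165A and 1940 and 1900 in H1093K (0.39, adjusted p = 0.00666). Limk1 and Ppp1cb, next by p, were not called. Of 22 tested non-muscle actin and actin-binding genes, 1 was called in WT against delta, the filament-capping Tmod3 (0.53, adjusted p = 0.0111), while Cfl2 (-0.26), Pls3 (0.33) and Flnc (-0.11) were not. Of 16 tested focal adhesion genes, 1 was higher, the caveolin Cav1 (0.55, adjusted p = 0.0217), and 2 lower, the zyxin relative Lpp (-0.64, adjusted p = 0.0139) and the integrin Itgav (-0.33, adjusted p = 0.0253). Itga5 was -0.32 and not called. No gene of these 5 lists was called between H1093K and delta, where only 0.969% of all genes tested were.

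Between the arrays labelled deleted and delta, the actin-binding list had 1 gene called higher and 8 lower of 22 tested, with a median of -0.17. The focal adhesion list had 3 higher and 8 lower of 16, with a median of -0.34. The SRF list had 3 higher and 4 lower of 12, the TGF-beta list 4 higher and 5 lower of 16, and the RhoA list 0 higher and 3 lower of 14, with medians of 0.02, -0.06 and -0.09. Of all genes tested, 16.7% were called higher and 18.9% lower in this comparison.

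**Figure D5:**
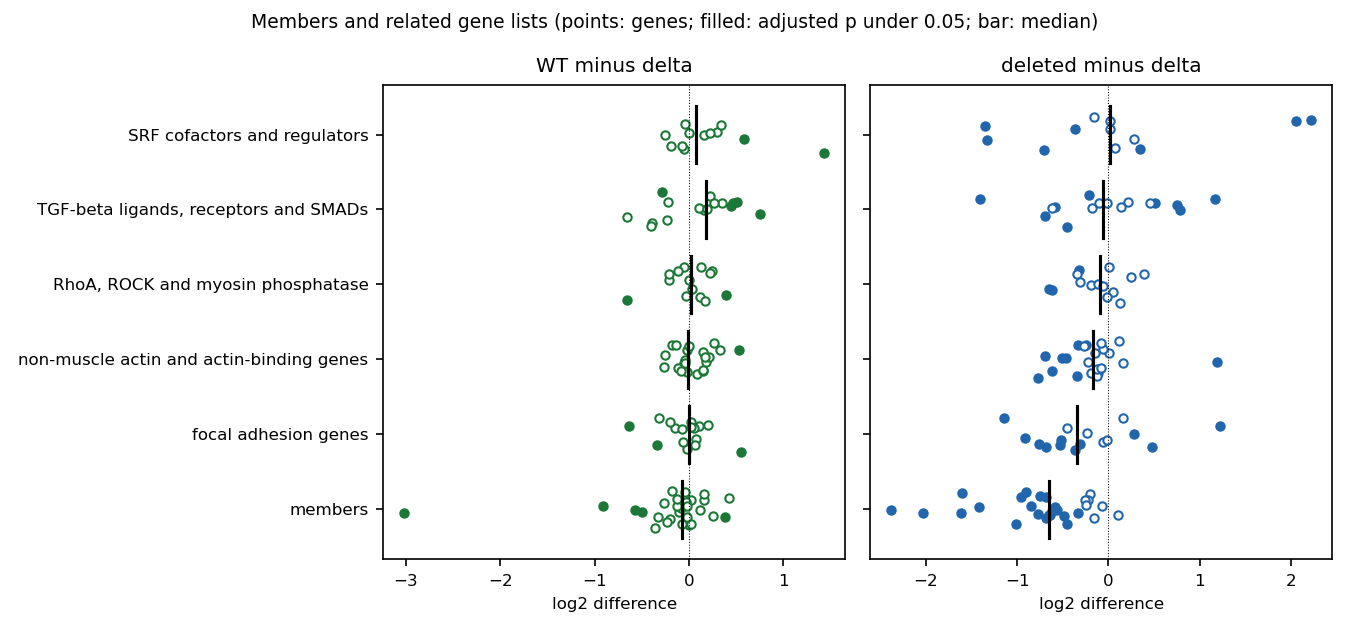
Log2 difference from delta (x axis) of the members and of 5 related gene lists, in WT and in the arrays labelled deleted; points are genes, filled where the adjusted p was under 0.05, and black bars are list medians. The members' median lies at -0.08 in WT and at -0.65 in the arrays labelled deleted, where the other 5 medians lie between -0.34 and 0.02.

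Of the marker lists of other cell types, the epithelial one had 3 of 4 tested genes called lower in WT and in K165A than in delta. Of all genes tested, 7.48% and 7.49% were called lower there. The summed signal of 8 epithelial genes was 3830 to 4140 in delta, 1140 to 1240 in WT, 1020 to 1170 in K165A, 2680 to 2920 in H1093K and 4540 to 4670 in the arrays labelled deleted, with 4 of the 8 tested and 3 called lower in WT. Krt7 made up most of it in delta, with means of 2610 in delta, 338 in WT and 98.0 in the arrays labelled deleted, where Krt8 (1600) and Krt18 (2070) were bright instead, while Cdh1 and Epcam stayed dim. The summed signal of 15 skeletal and cardiac muscle genes, none bright enough to test, was 655 to 776 in delta, 389 to 438 in WT, 378 to 470 in K165A, 668 to 682 in H1093K and 477 to 499 in the arrays labelled deleted. In it Acta1, the skeletal actin gene, had means of 208, 42.1, 41.2, 130 and 21.3 in that order, and Myod1 reached at most 89.9 and Myog 44.5 on any array. The 6 pericyte genes summed to 1100 to 1290 in delta, 1170 to 1180 in WT, 961 to 1160 in K165A, 1420 to 1770 in H1093K and 1010 to 1130 in the arrays labelled deleted. Of 4 pericyte genes tested, 1 was called higher in H1093K than in delta, where 0.504% of all genes were. In the arrays labelled deleted 1 was called higher than in delta and 2 lower, where 16.7% and 18.9% of all genes were. These differences partly cancel in the sum. Means in delta and in the arrays labelled deleted were 438 and 166 for Cspg4, 154 and 79.6 for Rgs5, 393 and 235 for Mcam, and 189 and 508 for Notch3. Endothelial sums ran from 243 to 368 and those of macrophage and leukocyte genes from 555 to 704 over all arrays. Of 3 macrophage and leukocyte genes tested, 1 was called lower in WT than in delta, where 7.48% of all genes were. The part of these genes in the members' differences was not tested.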

How the data were processed

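Affymetrix signal intensities, deposited by the authors on a linear scale and scaled to a common trimmed mean, were read for 22690 probe sets on 10 arrays; GCOS 1.4 is named in the submitters' processing notes, and further upstream steps are not given in the sources used here. Probe sets were named from GEO's platform table, in which 20380 have 1 gene, 691 several and 1555 none, and 64 are controls. Signals were taken as log2(signal + 16) from the deposited intensities. Probe sets with a mean at or above the 40th percentile were kept, 13576 in all, of which 12527 read 1 gene each (7742 genes).

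All 10 arrays entered 1 fit with a mean per group (limma 3.58.1 with an intensity trend, R 4.3.3, 5 residual degrees of freedom), with Benjamini-Hochberg adjustment over the 13576 probe sets. A gene is given by its probe set of highest mean. On simulated data for WT against delta, with 50 of the 13576 probe sets changed at each size, the fit recovered 21 at a log2 change of 0.5, 44 at 1, 49 at 2 and 48 at 3, with 5 false calls. The simulated noise was independent between arrays, while deviations of same-numbered arrays in these data correlated, so these rates may not hold for the real arrays. The number of arrays limits the precision.

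The titles number the second array of each group. Deviations of same-numbered arrays from their group means correlated in all 10 pairs of groups (r from 0.234 to 0.527). From the data alone, the numbers may thus pair the arrays, which no label says. Calls and p-values come from the fit without this pairing unless the block is named. The replicate block is given beside calls that it changes and counts that it moves by over 1.5 times. Its other counts stand in the closing section. The members, the related lists and the marker lists were chosen with earlier results of these data known. Every member called anywhere is given by array, and from each related list the 4 genes of smallest p in the F test over delta, WT, K165A and H1093K. Pdlim7 and Srf, the list genes Tpm3, Fhl1, Fhl2, Foxo1, Myocd, Mrtfa, Mrtfb, Tgfb3 and Tgfbr1, and marker genes, are named beside these. Alternatives were the pseudocount, the filter, the normalization, the intensity trend, the mean of a gene's probe sets, the replicate block, a fit without the arrays labelled deleted and leaving out each array. A filter on the mean of linear signals and the lower bounds for Actg2 were chosen after seeing the data.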

Additional observations from a re-analysis of the deposited data

How the results depend on the processing

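Of 1356 alternative values for the 67 pairs of member and comparison that were called, 1279 kept direction and call, 76 lost the call and 1 reversed: Tagln2 in K165A against delta was 0.0122 as the mean of its probe sets. With the replicate block the members called were 9 in WT against delta (all genes 22.1%, from 13.1%) and 9 in H1093K against WT (15.4%, from 8.87%), from 5 in each. With quantile normalization they were 8 and 9, where 1079 and 722 of 7742 genes were called. The block gave 9 in K165A against delta (all genes 21.0%, from 12.6%) and in H1093K against K165A (14.5%, from 8.05%). It gave 24 and 23 in the arrays labelled deleted against delta and WT (45.9% and 45.3%, from 35.6% and 34.7%). Over delta, WT, K165A and H1093K it gave 9 (23.3%, from 12.7%), and over all 5 groups 25 (54.4%, from 39.1%). The block ended no call. Leaving out 1 array gave 2 to 6 members called in WT against delta, 3 to 7 in K165A against delta, 3 to 5 in H1093K against WT, 4 to 6 in H1093K against K165A, and 15 to 23 across the 5 groups. Calls over all genes also fell in each of these comparisons whichever array was left out. No member was called between H1093K and delta or between K165A and WT under any alternative run. Other alternatives left each count within 1.5 times the one reported. A fit without the arrays labelled deleted gives no value for the comparisons with them or across 5 groups. With 2 arrays a group, differences near 0.5 on the log2 scale can be missed, and members under the filter have no call. The cause of the changed counts was not tested.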
